A study of Mus musculus with 18 samples.

Results

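Presentation of peptides on major histocompatibility complex (MHC) class I was examined in mouse white fat through 10 genes: H2-K1, H2-D1, B2m, Tap1, Tap2, Tapbp, Psmb8, Psmb9, Psmb10 and Nlrc5. They are listed by name for their roles in this pathway, a list drawn up with earlier results of these data known. All 10 were found among the 24091 gene symbols of the epididymal table and among the 51826 gene identifiers of the inguinal table, and all 10 passed the filter on low values in both. The series covers 18 samples of C57BL/6 mice in 6 groups, with n = 3 in each. Control mice lived with 12 h of light each day. Shiftwork mice kept that cycle on 4 days of the week and the reverse of it on the other 3, for 24 weeks. Epididymal fat (eWAT, a visceral depot) was sampled under both schedules at ZT3, in the light phase of the regular cycle, and at ZT12, when its lights go off, and inguinal fat (iWAT, a subcutaneous depot) was sampled at ZT3 only. The labels do not give the day of the weekly schedule on which shiftwork mice were sampled, nor whether the samples are separate animals, so p-values measure the spread between these samples.

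MHC class I molecules show short peptides from proteins made inside a cell to cytotoxic T cells. The peptides are cut by the proteasome, pumped into the endoplasmic reticulum by the TAP transporter, and loaded there onto a heavy chain paired with beta-2 microglobulin. Interferons raise most genes of this route and switch proteasomes to a form with other catalytic subunits, the immunoproteasome. In fat, adipocytes, endothelium, stromal cells and resident macrophages all carry class I, and in whole tissue a change in the number of such cells and a change of RNA per cell cannot be told apart.

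Between 20352008 and 72276733 reads were assigned to genes in an eWAT library, and between 28544338 and 55639501 in one of iWAT. Markers of fat cells were present in all 18 libraries, with none of 8 at 0 and summed levels of 8910 to 27000 CPM (read counts scaled to library size) in eWAT and 11500 to 28300 in iWAT. Several libraries also carried transcripts of other tissues. Vas deferens and epididymis markers summed to 11800 and 12300 CPM in eWAT ZT3 control replicates 1 and 3 against at most 11.7 CPM in the other eWAT libraries. Spermatid markers summed to 4110 CPM in eWAT ZT3 shiftwork replicate 3. In iWAT, B and plasma cell markers summed to 3790 and 6400 CPM in control replicates 1 and 2 and to 130 to 1240 CPM in the other libraries, and skeletal muscle markers to 48000 CPM in shiftwork replicate 1. For the members and the called genes of the pathway lists, the fits are also given without the libraries with male tract, germ cell or lymphoid transcripts.

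Of the 10 genes 7 lie on chromosome 17, most of them within the MHC. The heavy chain genes are H2-K1 (chromosome 17, 33996012 to 34000333, minus strand) and H2-D1 (chromosome 17, 35263094 to 35267497, plus strand), as placed by the eWAT table. B2m, the light chain, is on chromosome 2 (122147687 to 122153082, plus strand). Psmb9 (chromosome 17, 34182099 to 34187330, minus strand) and Tap1 (chromosome 17, 34187556 to 34197225, plus strand) are transcribed away from each other, followed by Psmb8 (34198195 to 34201454, plus strand) and Tap2 (34204479 to 34216321, plus strand). Tapbp (chromosome 17, 33919478 to 33929290, plus strand) lies near H2-K1. Psmb10 (chromosome 8, 105935728 to 105938392, minus strand) and Nlrc5 (chromosome 8, 94472763 to 94527272, plus strand) are outside the MHC.

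Since most of these genes rose between the same time points in eWAT, as described further on, the bases before their starts were read. RefSeq promoter windows on build GRCm38.p6, reaching from 250 bases before to 50 bases after a start, were found for 8 of the 10 genes. Classical class I promoters are known to carry a compact block in which a CRE-like element is followed by a CCAAT box on the other strand, and NLRC5 acts through that block. The letters TGACG, a CRE core, and ATTGG, which is CCAAT on the other strand, stood 20 bases apart in the windows of B2m, H2-D1 and H2-K1. That spacing was picked after these matches were seen. It was found in 31 of 32851 mouse windows (0.0944%), which belong to 27 genes. These include the class Ib gene H2-M3 and genes outside the pathway, such as Calu, Hnrnpf, Nasp, Nfe2l1 and Per1. The windows of Tap1, Tapbp, Psmb8, Psmb9 and Psmb10 did not hold the spaced pair. Nor did those of H2-Q4, H2-Q7 and H2-T23, relatives of the heavy chains that also rose in eWAT. The 150 bases before each start are shown because they hold that pair. Capitals mark TGACG and CCAAT (or ATTGG) and, in B2m, GAAACTGAAA.
B2m, 2:122147537-122147686, plus strand: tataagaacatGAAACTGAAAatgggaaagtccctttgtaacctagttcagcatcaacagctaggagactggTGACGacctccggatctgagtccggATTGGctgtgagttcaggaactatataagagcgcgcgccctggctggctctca
H2-D1, 17:35262944-35263093, plus strand: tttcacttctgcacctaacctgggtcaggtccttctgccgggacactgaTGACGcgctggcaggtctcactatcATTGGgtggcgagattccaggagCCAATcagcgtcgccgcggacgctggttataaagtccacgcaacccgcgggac
H2-K1, 17:34000334-34000483, minus strand: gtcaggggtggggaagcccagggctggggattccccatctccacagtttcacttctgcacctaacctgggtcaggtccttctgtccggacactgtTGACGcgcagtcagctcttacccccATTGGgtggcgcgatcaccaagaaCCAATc

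The starts of Psmb9 and Tap1 lie back to back with 225 bases between them, so the stretch before the one gene is also the stretch before the other. It is printed in the Tap1 direction because both genes are read from it. It held TGACG 86 bases before the Tap1 start and CCAAT at base 4 counted from the Psmb9 end, both in capitals.
Psmb9 to Tap1, 17:34187331-34187555, plus strand: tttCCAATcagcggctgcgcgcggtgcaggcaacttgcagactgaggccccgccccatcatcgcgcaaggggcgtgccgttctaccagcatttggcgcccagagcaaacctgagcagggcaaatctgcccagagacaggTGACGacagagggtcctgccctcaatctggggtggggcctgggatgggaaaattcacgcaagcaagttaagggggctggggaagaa
Single motifs were searched on both strands in 9 windows of the 8 genes, H2-K1 having 2 starts. TGACG was in 6 of the 9 windows, against 20.8% of all windows, and CCAAT in 7 of 9, against 37.4%. These counts repeat sites, since the 2 H2-K1 windows overlap and so do those of Psmb9 and Tap1. The interferon-stimulated response element, read as GAAA, any 2 bases and GAAA, was in 1 of the 9 (B2m, 139 bases before the start), against 3.44% of all windows. The gamma-activated site TTCNNNGAA was in 1 (Psmb8, TTCCCAGAA, 97 bases before the start), against 8.3%. The full element TGACGTCA was in none of the 9, against 1.79%. These matches describe letters and not bound sites.

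Abundance differed widely among the members. Compared per transcript length as the authors' log2 FPKM, B2m was the most abundant in ZT3 control eWAT at 10.22 ± 0.131 (SD, n = 3), above H2-D1 at 7.64 ± 0.200 and H2-K1 at 7.17 ± 0.188. Tapbp followed at 5.82 ± 0.141, then Tap2 at 4.07 ± 0.0833 and Psmb8 at 3.93 ± 0.0917, whose libraries overlapped. Psmb10 stood at 3.66 ± 0.222 and Psmb9 at 3.09 ± 0.271. Nlrc5 at 2.21 ± 0.125 and Tap1 at 2.05 ± 0.198 were the lowest and overlapped each other. The order B2m, H2-D1, H2-K1, Tapbp opened the ranking in all 6 groups, with overlap between H2-D1 and H2-K1 in iWAT controls alone. At ZT12, Psmb8 was in the fifth place of control eWAT at 4.96 ± 0.0751, above Psmb10 (4.64 ± 0.174) and Tap2 (4.52 ± 0.0265) without overlap.

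The main contrast of these genes was time of day in control eWAT. All 10 members stood higher at ZT12 than at ZT3 with no overlap between the groups, and 8 of the 10 rose past the test over all genes. The background in that comparison was 559 of 15141 genes called in either direction (3.69%) and 443 called higher (2.93%), by edgeR's quasi-likelihood test at a Benjamini-Hochberg adjusted p under 0.05. No overlap in the higher direction was found for 19.3% of all genes. The median log2 fold change of the 10 members was 0.91, against -0.01 for all genes tested. Log2 fold changes below are ZT12 minus ZT3 with their standard error (SE).

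Both heavy chains rose. H2-K1, which encodes the K heavy chain, had 382, 567 and 418 CPM in the 3 ZT3 controls and 1043, 1016 and 1030 CPM in the 3 ZT12 controls, in replicate order. H2-D1, the D heavy chain, stood at 463, 637 and 440 CPM at ZT3 and at 1133, 1038 and 1181 CPM at ZT12. Replicate 2 was the highest ZT3 control for both genes and still lay well under each ZT12 library. The log2 fold change was 1.18 ± 0.157 for H2-K1, or 2.26-fold (edgeR adjusted p = 0.0164), and 1.12 ± 0.162 for H2-D1, or 2.18-fold (adjusted p = 0.0168). The 2 transcripts share sequence with each other and with other class I genes: of the 51-base words in the longest transcript, 8.22% of those of H2-K1 and 13.7% of those of H2-D1 also occur in another gene. Reads from such stretches may be assigned to either gene.

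B2m, the light chain shared by all class I molecules, stood at 1381, 1516 and 1240 CPM at ZT3 and at 2650, 2395 and 2577 CPM at ZT12. All ZT12 controls were above all ZT3 controls, by 0.88 ± 0.160 on the log2 scale (edgeR adjusted p = 0.0239). With the replicate number as a block the adjusted p was 0.0504, and 7 of the 12 fits that left out 1 library did not call it, with log2 fold changes of 0.78 to 0.93 over the 12. None of the 51-base words of B2m occurs in another gene.

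Of the 2 transporter subunits Tap1 passed the test and Tap2 did not, and the difference between them was not tested. Tap1 stood at 30.9, 27.6 and 30.1 CPM at ZT3 and at 50.9, 44.2 and 42.6 CPM at ZT12, a rise of 0.64 ± 0.122 (edgeR adjusted p = 0.0272). Tap2 stood at 54.4, 62.1 and 52.1 CPM at ZT3 and at 79.9, 76.5 and 77.1 CPM at ZT12, with a log2 fold change of 0.47 ± 0.151 that missed the threshold (adjusted p = 0.103). Both genes were separated between the times in every library. Tapbp, or tapasin, which bridges TAP and the empty heavy chain, stood at 212, 231 and 187 CPM at ZT3 and at 339, 365 and 372 CPM at ZT12. It rose by 0.77 ± 0.115 (adjusted p = 0.0168). In the GENCODE annotation, exons of Tap1 and Psmb9 overlap on opposite strands, Tapbp shares exon positions with Zbtb22 and with an antisense gene, and Tap2 and Psmb8 have antisense partners, and the strand used in counting is not given in the sources used here.

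All 3 immunoproteasome subunits rose. Psmb8, also called LMP7, stood at 24.4, 25.3 and 25.1 CPM at ZT3 and at 55.3, 50.1 and 50.1 CPM at ZT12, a rise of 1.06 ± 0.122 or 2.08-fold (edgeR adjusted p = 0.0148). Psmb9, or LMP2, stood at 9.82, 8.04 and 9.62 CPM at ZT3 and at 19.3, 16.1 and 17.4 CPM at ZT12, a rise of 0.94 ± 0.185 (adjusted p = 0.0288). Psmb10, or MECL-1, stood at 21.6, 25.4 and 17.7 CPM at ZT3 and at 39.9, 49.2 and 40.5 CPM at ZT12, a rise of 1.0 ± 0.193 (adjusted p = 0.0280). The ZT3 controls of Psmb8 were the tightest group of the 3 genes, with a highest library only 1.04 times the lowest.

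Nlrc5, the transactivator of class I genes, stood at 39.1, 50.2 and 38.6 CPM at ZT3 and at 67.6, 60.0 and 66.8 CPM at ZT12. The groups did not overlap, but its log2 fold change of 0.61 ± 0.151 narrowly missed the threshold (edgeR adjusted p = 0.0545).

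**Figure D1:**
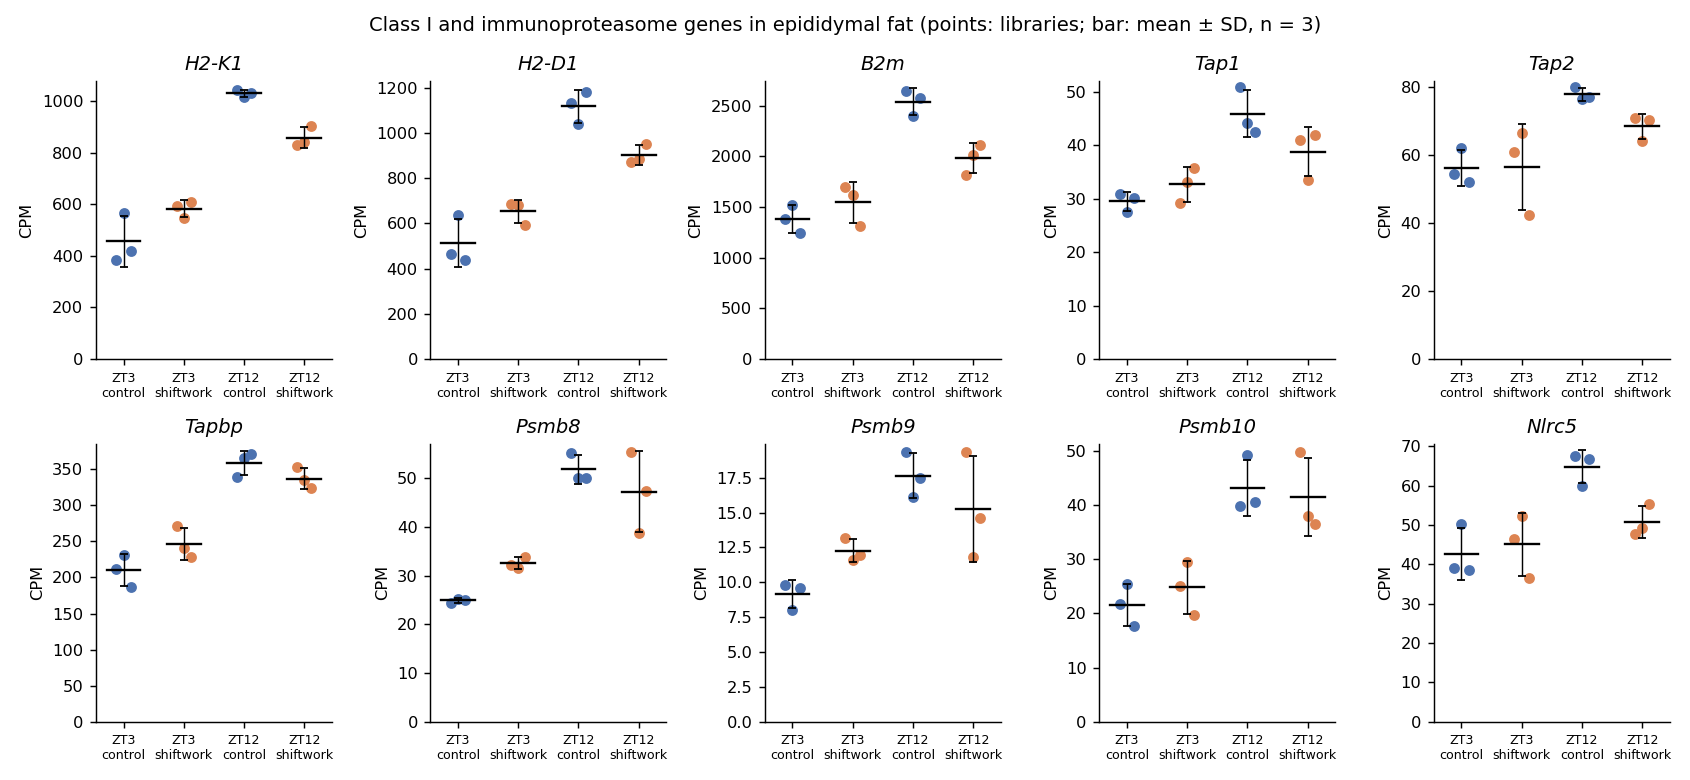
Level in CPM (vertical axes, starting at 0) of each of the 10 genes in the 12 epididymal libraries, by time and schedule; points are libraries, bars the mean ± SD (n = 3). For all 10 genes the 3 ZT12 control points lie above the 3 ZT3 control points, and H2-K1 goes from 382 to 567 CPM at ZT3 to 1016 to 1043 CPM at ZT12.

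The calls depended on single libraries, and the size for the heavy chains was lower without the 3 ZT3 libraries that held transcripts of other tissues. With ZT3 control replicates 1 and 3 and ZT3 shiftwork replicate 3 removed, an alternative added once the libraries had been inspected and with replicate 2 as the remaining ZT3 control, all 10 members stayed higher at ZT12 and 5 were called by edgeR. They were H2-K1 (0.82 ± 0.119, adjusted p = 0.0163), H2-D1 (0.77 ± 0.128), B2m (0.70 ± 0.141), Tapbp (0.60 ± 0.123) and Psmb8 (0.99 ± 0.186). The lone control is assumed there to vary like the other groups. The number of all genes called in that fit is given further on, with the processing. Leaving out 1 library at a time gave log2 fold changes of 1.06 to 1.34 for H2-K1, 0.99 to 1.29 for H2-D1, 0.99 to 1.08 for Psmb8 and 0.66 to 0.82 for Tapbp, and kept all 10 members above 0, while the number called was 0 without ZT3 control replicate 3, ZT12 control replicate 1 or ZT12 control replicate 2, 3 without ZT12 control replicate 3, and 4 without ZT3 control replicate 1 or ZT12 shiftwork replicate 3.

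Markers of several cell types, macrophages among them, were higher at ZT12 than at ZT3 in control eWAT. The summed level of 12 macrophage markers, none at 0, was 860 to 1100 CPM in ZT3 controls and 1570 to 2690 CPM in ZT12 controls, and that of 6 dendritic cell markers was 32.6 to 34.7 and 55.0 to 118 CPM. Endothelial markers also separated the times, at 889 to 983 CPM at ZT3 and 1010 to 1300 CPM at ZT12. So did progenitor and fibroblast markers, at 1390 to 1660 and 1700 to 2190 CPM. T and NK cell markers did not separate the times, at 18.6 to 32.4 CPM at ZT3 and 17.3 to 33.5 CPM at ZT12. Fat cell markers overlapped, at 13400 to 22900 and 21200 to 27000 CPM, and B and plasma cell markers were lower at ZT12 (73.1 to 280 and 32.4 to 34.7 CPM). The part of these cells in the rise of the class I genes was not tested. Under shiftwork, macrophage markers summed to 867 to 1500 CPM at ZT3 and to 1720 to 3550 CPM at ZT12. Their ZT12 sums overlapped those of the controls. Dendritic cell markers under shiftwork summed to 25.1 to 59.4 CPM at ZT3 and 60.4 to 63.0 CPM at ZT12. Progenitor and fibroblast markers summed to 1270 to 1910 and 2090 to 2560 CPM. Endothelial markers overlapped between the times there (647 to 1360 and 839 to 1570 CPM), as did T and NK, B and plasma, and fat cell markers.

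Under the shiftwork schedule the members again had higher values at ZT12 than at ZT3, with smaller fold changes, and none passed the test over all genes. The background was the same: 0 of 15141 genes (0%) were called by edgeR, with 2461 at an unadjusted p under 0.05. The median log2 fold change of the 10 members was 0.40, against -0.03 for all genes. H2-K1, H2-D1, B2m, Tapbp, Psmb8 and Psmb10 did not overlap between the times, where 9.05% of all genes were higher and 7.59% lower without overlap, and the same 6 genes had an unadjusted p under 0.05.

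H2-K1 stood at 592, 545 and 608 CPM at ZT3 under shiftwork, in replicate order, and at 831, 839 and 904 CPM at ZT12 (0.56 ± 0.155, edgeR adjusted p = 0.28). H2-D1 stood at 684, 680 and 594 CPM and at 871, 886 and 953 CPM (0.47 ± 0.161). B2m stood at 1698, 1622 and 1318 CPM and at 1818, 2018 and 2113 CPM (0.36 ± 0.159). For all 3 genes the lowest ZT12 library was above the highest ZT3 library, by a narrow margin for B2m.

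Tapbp stood at 272, 241 and 228 CPM at ZT3 and at 353, 335 and 323 CPM at ZT12 under shiftwork (0.45 ± 0.115). Tap1 stood at 29.2, 33.2 and 35.7 CPM and at 41, 33.6 and 42 CPM (0.25 ± 0.122), and Tap2 at 60.9, 66.4 and 42.3 CPM and at 70.9, 64.1 and 70.2 CPM (0.27 ± 0.151). Both transporter genes overlapped between the times, with ZT12 replicate 2 low for each.

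Among the proteasome subunits Psmb10 had the largest difference between the times under shiftwork (0.74 ± 0.193), with 25.1, 29.5 and 19.8 CPM at ZT3 against 49.7, 38 and 36.5 CPM at ZT12. Psmb8 stood at 32.1, 31.6 and 33.9 CPM and at 55.4, 38.8 and 47.4 CPM (0.54 ± 0.121). Psmb9 stood at 13.2, 11.6 and 11.9 CPM and at 19.4, 11.8 and 14.6 CPM (0.32 ± 0.183) and overlapped. ZT12 shiftwork replicate 1 was the highest library of its group for all 3 subunits, Tap2 and Tapbp. It was the lowest of its group for H2-K1 (831 CPM), H2-D1 (871 CPM), B2m (1818 CPM) and Nlrc5 (47.7 CPM). That library had the highest macrophage marker sum in eWAT, 3550 CPM, and a link between that sum and these levels was not tested. Nlrc5 stood at 46.4, 52.3 and 36.5 CPM at ZT3 and at 47.7, 49.2 and 55.3 CPM at ZT12 (0.17 ± 0.150), with overlap.

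The call of 0 members depended on the tool. DESeq2 called 4 members higher at ZT12 under shiftwork (H2-K1, Tapbp, Psmb8 and Psmb10), among 288 genes called in either direction. The DESeq2 adjusted p of these members ran from 0.00958 for Tapbp to 0.0427 for Psmb10. Without the 3 ZT3 libraries named above, which leaves 1 ZT3 control in the fit, H2-K1 was at 0.57 ± 0.0907 under shiftwork.

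The difference between the 2 time contrasts was tested as the interaction of schedule and time. All 10 members lay below 0, which means a smaller ZT12 excess under shiftwork, with a median of -0.48 against -0.07 for all genes, of which 42.9% were above 0. None of the 10 passed the edgeR test (adjusted p of 0.457 or more), nor did any of the 15141 genes (0%), with 1535 at an unadjusted p under 0.05. The lowest values were those of H2-D1 (-0.66 ± 0.227), Psmb9 (-0.63 ± 0.259), H2-K1 (-0.62 ± 0.219), B2m (-0.52 ± 0.225) and Psmb8 (-0.52 ± 0.171), and those nearest 0 were Tap2 (-0.19 ± 0.213) and Psmb10 (-0.26 ± 0.271). Without the 3 ZT3 libraries all 10 remained below 0, and H2-K1 was at -0.25 ± 0.145.

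**Figure D2:**
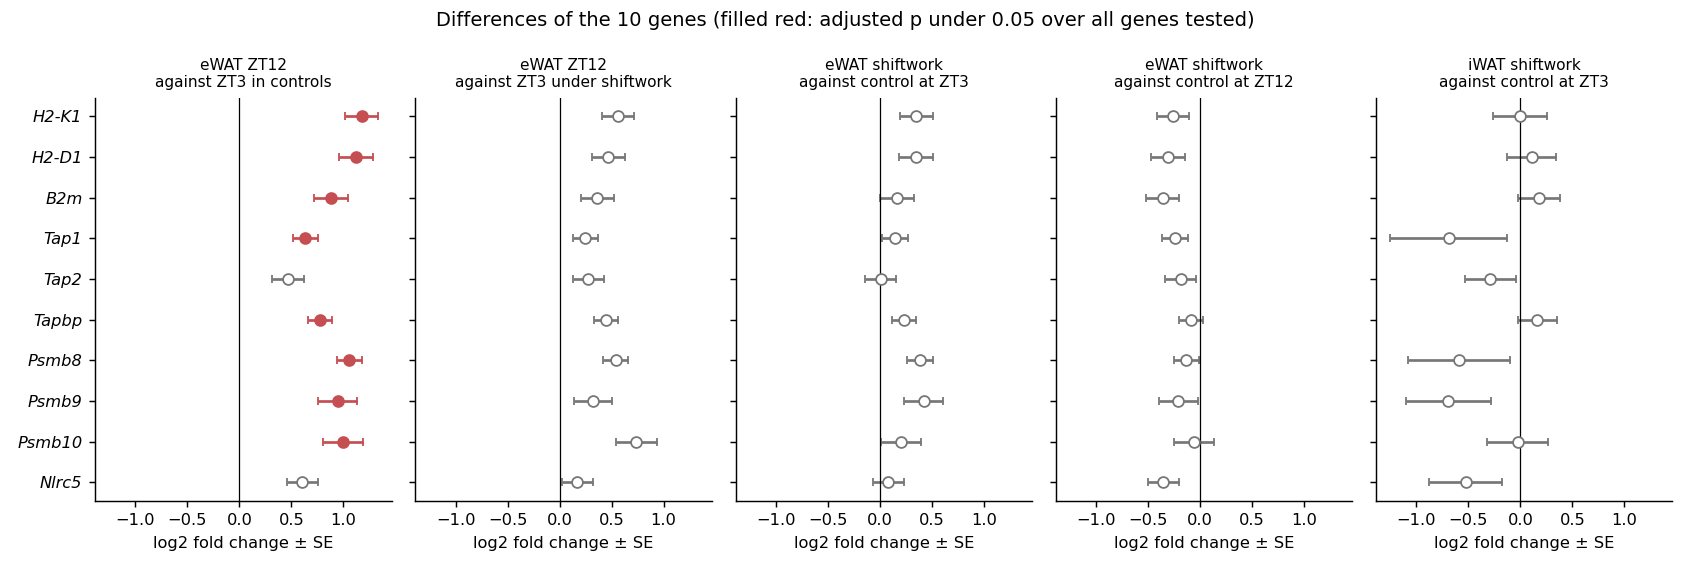
Log2 fold change ± SE (horizontal axes) of the 10 genes in 5 comparisons, from edgeR for epididymal fat and limma for inguinal fat; filled red points have an adjusted p under 0.05 over all genes. The 8 red points are all in ZT12 against ZT3 of controls, where H2-K1 is the highest at 1.18, and Psmb9 and Tap1 have the lowest values in the inguinal panel, both at -0.69.

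At ZT3 the members tended to lie a little higher in shiftwork than in control eWAT, and at ZT12 a little lower. None passed the edgeR test at either time, nor did any of the 15141 genes (0% at ZT3 and 0% at ZT12, with 2847 and 355 at an unadjusted p under 0.05). These 2 contrasts use the same libraries as the time contrasts above and are not separate observations. The ZT3 controls enter both the shiftwork contrast at ZT3 and the rise of the controls.

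At ZT3 all 10 fold changes of shiftwork against control were above 0, as were 56.9% of all genes, with a median of 0.22 against 0.06. Psmb8 (0.39 ± 0.121, edgeR adjusted p = 0.212) and Psmb9 (0.42 ± 0.184, adjusted p = 0.257) were higher in all shiftwork libraries than in all controls, a pattern of 7.64% of all genes (4.33% in the other direction). The other 8 overlapped in CPM. H2-K1 stood at 0.35 ± 0.155 and H2-D1 at 0.35 ± 0.160, and in both ZT3 control replicate 2 reached the range of the shiftwork libraries. On the authors' log2 FPKM scale these 2 genes and Tapbp did not overlap. H2-K1 was at most 7.39 in controls and at least 7.40 in shiftwork, H2-D1 at most 7.85 and at least 8.02, and Tapbp at most 5.95 and at least 5.97. For H2-K1 and Tapbp the gap was little more than the rounding of the deposited values. The share of all genes without overlap on that scale was not computed. B2m (0.16 ± 0.159), Tap1 (0.15 ± 0.122), Tapbp (0.23 ± 0.115) and Psmb10 (0.20 ± 0.192) were smaller, and Tap2 (0.01 ± 0.151) and Nlrc5 (0.08 ± 0.150) were near 0. Without the 3 ZT3 libraries the value of H2-K1 was -0.01, that of Nlrc5 -0.04, that of Psmb8 0.32 ± 0.189 and that of Psmb9 0.61 ± 0.276.

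At ZT12 all 10 fold changes of shiftwork against control were below 0, with a median of -0.22 against 0.00 for all genes, of which 49% were above 0. H2-K1, H2-D1, B2m, Tap1, Tap2 and Nlrc5 were lower in all 3 shiftwork libraries than in all 3 controls, a pattern of 6.55% of all genes (5.91% in the other direction). B2m went from 2541 ± 132 CPM (SD) in controls to 1983 ± 151 CPM under shiftwork (-0.36 ± 0.159), Nlrc5 from 64.8 ± 4.18 to 50.7 ± 4.05 CPM (-0.35 ± 0.150), and H2-D1 from 1118 ± 72.6 to 903 ± 43.6 CPM (-0.31 ± 0.160). H2-K1 had -0.26 ± 0.155, Tap1 -0.24 ± 0.122 and Tap2 -0.19 ± 0.150. The adjusted p of each was 1 by edgeR. Deviations of same-numbered libraries of these 2 groups correlated at 0.132 to 0.31, and those of unlike numbers at -0.277 to 0.124. Between other groups unlike numbers reached 0.465, so a pairing is not shown. With the number as a block in the 6 ZT12 libraries alone none of the 10 was called either, with Nlrc5 at -0.34 ± 0.0950 (edgeR adjusted p = 0.506). Psmb8 (-0.13 ± 0.121), Psmb9 (-0.21 ± 0.183), Psmb10 (-0.06 ± 0.191) and Tapbp (-0.09 ± 0.115) overlapped. No ZT12 library carried the male tract or germ cell transcripts at the levels of the 3 ZT3 libraries. In ZT12 shiftwork replicate 2 the intestine markers reached 316 CPM in sum.

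Each immunoproteasome subunit takes the place of a constitutive one: Psmb8 that of Psmb5, Psmb9 that of Psmb6, and Psmb10 that of Psmb7. The constitutive partners did not pass the test in control eWAT between ZT3 and ZT12, at -0.37 ± 0.191 for Psmb5, -0.19 ± 0.106 for Psmb6 and -0.20 ± 0.164 for Psmb7 (edgeR adjusted p = 0.289, 0.339 and 0.541). Without the 3 ZT3 libraries, which leaves 1 ZT3 control, Psmb5 was at -0.51 ± 0.163, Psmb6 at -0.22 ± 0.136 and Psmb7 at -0.41 ± 0.104. All 3 lay below 0 in both fits, and the ratios below take in the levels of these partners too. The per-length level of Psmb8 as a percent of that of Psmb5 was 130, 96.6 and 87.1 in ZT3 controls and 293, 250 and 277 in ZT12 controls. Psmb9 as a percent of Psmb6 was 16, 12.5 and 14 at ZT3 and 36.1, 27.7 and 28.7 at ZT12, and Psmb10 as a percent of Psmb7 was 57.8, 50.3 and 37.6 at ZT3 and 103, 130 and 97.3 at ZT12. All 3 ratios were thus higher in every ZT12 control than in every ZT3 control, replicate 2 included, the ZT3 control without vas deferens transcripts at a high level. On the log2 scale the differences were 1.40, 1.12 and 1.19, each with a two-sided exact permutation p of 0.1, the smallest that 3 against 3 allows (0.214 when adjusted over 15 such tests).

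Shiftwork libraries lay between the control groups for Psmb8 over Psmb5, at 173, 144 and 223 percent at ZT3 and 228, 199 and 233 percent at ZT12. At ZT3 the difference from controls was 0.78 on the log2 scale and at ZT12 it was -0.31, each with no overlap and an exact permutation p of 0.1. Psmb9 over Psmb6 was 22.4, 16.4 and 20.4 percent at ZT3 and 29.5, 20.7 and 23.8 percent at ZT12 under shiftwork. Psmb10 over Psmb7 was 56.6, 64.2 and 65.1 percent and 111, 94.0 and 81.8 percent. Psmb5 itself stood at 13.3, 18.7 and 20.6 CPM in ZT3 controls and at 13.2, 15.5 and 10.8 CPM in ZT3 shiftwork.

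**Figure D3:**
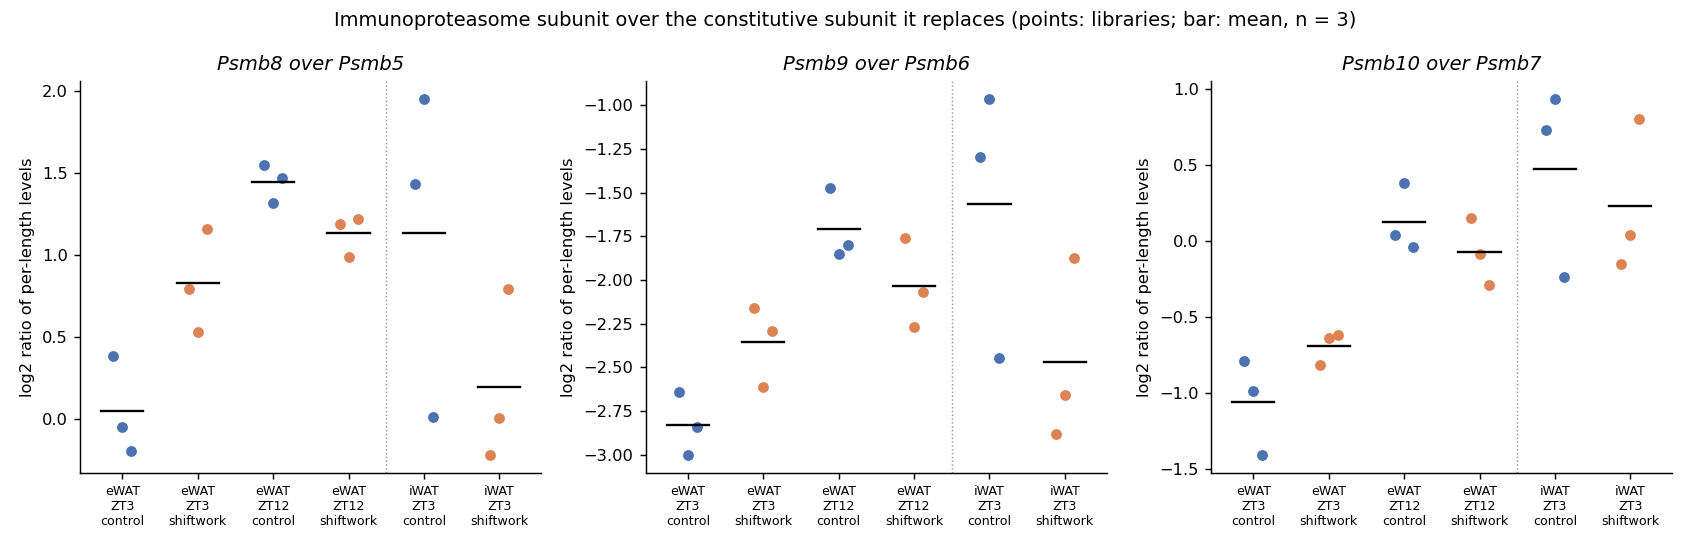
Log2 ratio of the per-length level of each immunoproteasome subunit to its constitutive counterpart (vertical axes) in all 18 libraries, from log2 FPKM in epididymal and RPKM in inguinal fat; points are libraries and bars the mean of n = 3. In epididymal controls the mean for Psmb8 over Psmb5 goes from 0.04 at ZT3 to 1.45 at ZT12, and inguinal control points spread widely, from 0.01 to 1.95 for that pair.

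Other genes of the pathway were read from lists. Of 21 heavy chain relatives 15 were tested in eWAT. Between ZT3 and ZT12 in controls edgeR called 4 of them higher, where 2.93% of all genes were called higher. In that contrast 11 relatives lay above 0 and 4 below, with a list median of 0.68 against -0.01 for all genes. The nonclassical gene H2-Q4 rose by 1.44 ± 0.120 (adjusted p = 0.00426), from 33.3 ± 3.89 to 90.1 ± 2.54 CPM (SD, n = 3). H2-T24 rose by 1.16 ± 0.195, H2-Q7 by 0.92 ± 0.170, and H2-T23, which encodes the Qa-1 molecule that presents leader peptides of class I chains, by 0.70 ± 0.149. H2-T23 is named here after its value was seen. These genes share sequence with H2-K1 and H2-D1, and their reads may be assigned to either. Without the 3 ZT3 libraries H2-Q4 (1.23 ± 0.115), H2-T23 (1.04 ± 0.135) and H2-Q7 (0.93 ± 0.184) were called, and H2-T24 was not (1.07 ± 0.249, adjusted p = 0.0521).

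Of 20 regulators and interferon signalling genes tested, 2 were called higher in the same contrast, among them Stat2, which acts in type I interferon signalling (0.84 ± 0.140, edgeR adjusted p = 0.0195). The median of that list was 0.36 against -0.01 for all genes, of which 2.93% were called higher. Irf1, an interferon-induced factor that acts on class I promoters, did not overlap between the times, at 42.4, 39.2 and 43.8 CPM and at 65.9, 52.5 and 49.1 CPM, without being called (0.42 ± 0.141, adjusted p = 0.113). Ifng, the gene of interferon gamma, was at 0.0376 to 0.332 CPM over the 12 eWAT libraries, near the 0.0415 to 0.147 CPM that 3 reads are worth there, so differences in it were not detectable at this depth. Irf1 and Ifng are named here after their values were seen. Of 6 receptors for class I that were tested, 4 lay above 0 and 2 below, where 48.7% of all genes lay above 0. The 1 called was the inhibitory receptor Pirb (1.57 ± 0.287, edgeR adjusted p = 0.0243). Without the 3 ZT3 libraries neither Stat2 (0.81 ± 0.193, adjusted p = 0.0558) nor Pirb (1.42 ± 0.466, adjusted p = 0.122) was called.

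The general proteasome had no called gene in control eWAT between ZT3 and ZT12, where 3.69% of all genes were called. At that share a list of this length can have none called, so the counts alone do not set these lists apart. Of 14 constitutive core genes none was called in control eWAT, and 12 lay below 0 with a median of -0.10. The 17 genes of the 19S cap, which recognises ubiquitin chains, had none called, 14 below 0 and a median of -0.10. The 7 genes of the activator and of assembly had none called and a median of -0.01. Likewise none of the 9 loading partners, which include the chaperones calreticulin (Calr) and calnexin (Canx), was called, with a median of -0.14. In the other 4 eWAT comparisons and in iWAT, no gene of these 7 lists was called, nor was any other gene tested.

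In iWAT all members but B2m overlapped between the schedules. None of the 10 was called at ZT3 (limma on log2 of the normalized signal + 1), nor was any of 16387 genes (0%, with 1094 at an unadjusted p under 0.05), and 3 lay above 0. The authors' deposited table likewise gave these genes adjusted p-values from 0.837 for Psmb9 to 0.992 for H2-K1. Values below are in the deposited normalized signal, which compares libraries within a gene.

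The immunoproteasome and transporter genes varied more between iWAT libraries than between schedules. Tap1 stood at 4607, 7233 and 1928 in control replicates 1 to 3 and at 1909, 1808 and 4427 in shiftwork (log2 fold change -0.69 ± 0.567). Psmb8 stood at 3913, 6658 and 2039 and at 2115, 1841 and 4005 (-0.59 ± 0.493), and Psmb9 at 1858, 2825 and 1100 and at 913, 893 and 1673 (-0.69 ± 0.409). For these genes control replicates 1 and 2 and shiftwork replicate 3 were high, and the other 3 libraries low. The same 3 libraries were the highest for Nlrc5, at 4755, 5380 and 2703 in controls and 2171, 2579 and 4154 in shiftwork (-0.52 ± 0.351). They were also the highest for Tap2 (-0.29 ± 0.243) and Psmb10 (-0.03 ± 0.293), which makes 6 of the 10 members. The highest library was 4.0 times the lowest for Tap1, 3.62 times for Psmb8 and 3.16 times for Psmb9.

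The heavy and light chains varied less. H2-K1 stood at 42466, 60629 and 36849 in controls and at 47332, 39926 and 49820 in shiftwork (0.00 ± 0.263), and H2-D1 at 52393, 64866 and 58028 and at 63216, 52887 and 73855 (0.11 ± 0.236). Tapbp stood at 10992, 13578 and 11156 and at 12776, 12036 and 15214 (0.16 ± 0.187). B2m was the steadiest, at 56185, 59173 and 59645 in controls and at 62804, 68719 and 66523 in shiftwork, with the highest library 1.22 times the lowest. It was the 1 member of 10 that did not overlap, higher under shiftwork by 0.18 ± 0.201 (limma adjusted p = 0.792), as were 7.34% of all genes, with 5.59% lower without overlap. On the authors' RPKM scale its groups overlapped, at 2278, 2270 and 1962 in controls and 1961, 2439 and 2272 in shiftwork.

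**Figure D4:**
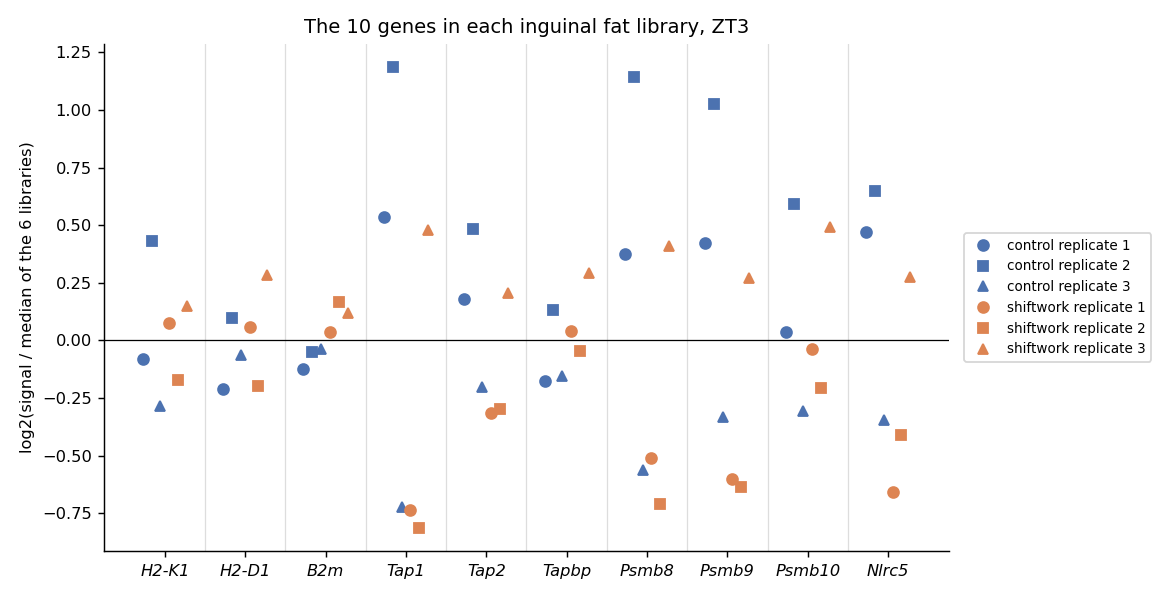
Normalized signal of the 10 genes in the 6 inguinal libraries, as log2 of the ratio to the median library of each gene (vertical axis); symbols are replicates and colours are schedules. For Tap1, Tap2, Psmb8, Psmb9, Psmb10 and Nlrc5 the 3 highest points are control replicates 1 and 2 and shiftwork replicate 3, while B2m spans 1.22-fold in all.

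Lymphoid and macrophage markers differed between the same iWAT libraries. T and NK cell markers summed to 348, 685 and 16 CPM in control replicates 1 to 3 and to 31.7, 29.8 and 23 CPM in shiftwork, and lymph node stroma markers to 234, 445 and 14.1 CPM and to 12.8, 10.6 and 87.9 CPM. B and plasma cell markers, 3790, 6400 and 660 CPM in controls, were at 1240, 1110 and 130 CPM in shiftwork. Shiftwork replicate 3 thus had few B and T cell markers, while it had the highest macrophage sum (4250 CPM, against 1290 to 2720 in the others). No B and plasma, T and NK or macrophage marker present in the table was at 0 in iWAT, and the part of these cells in the levels of the class I genes was not tested. With control replicates 1 and 2 removed, likewise an alternative added after inspection, 1 control is left and is assumed to vary like the other group, and all 10 members lay above 0 and none was called by limma. In that fit Tap1 was at 0.36 ± 0.602, Psmb8 at 0.29 ± 0.508 and Psmb9 at 0.01 ± 0.450. Without shiftwork replicate 1, the library with muscle transcripts, none was called, and Tap1 was at -0.50, Psmb8 at -0.47 and Psmb9 at -0.55.

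The ratio of immunoproteasome to constitutive subunits spread in the same way in iWAT. Psmb8 was 271, 388 and 100 percent of Psmb5 in controls and 85.7, 100 and 173 percent in shiftwork. Psmb9 was 40.7, 51.3 and 18.4 percent of Psmb6 and 13.6, 15.8 and 27.3 percent, and Psmb10 was 165, 191 and 84.7 percent of Psmb7 and 90.1, 103 and 174 percent. In each pair of groups the values overlapped (exact permutation p of 0.2, 0.2 and 0.8).

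The effect of shiftwork at ZT3 was then compared between the depots, as the difference of the 2 within-depot effects. None of the 10 members passed limma's test, in which 2 of 15378 genes were called (0.013%), and 9 lay below 0, with a median of -0.31 against 0.00 for all genes. Psmb9 was the lowest at -1.05 ± 0.414 (unadjusted p = 0.0234, adjusted p = 0.389), then Psmb8 at -0.94 ± 0.470, Tap1 at -0.81 ± 0.538 and Nlrc5 at -0.58 ± 0.363. B2m (0.03 ± 0.217) and Tapbp (-0.06 ± 0.192) were near 0. Leaving out iWAT control replicate 3 brought Psmb9 to -1.40 with a limma adjusted p of 0.0406. It was the 1 call of a member among the fits that left out a library. The iWAT controls kept in that fit, replicates 1 and 2, had the highest B and plasma and T and NK cell marker sums in iWAT. Over all genes, the fits that left out 1 library called from 0 to 667. With the 3 ZT3 eWAT libraries and iWAT control replicates 1 and 2 all removed, which leaves 1 control in each depot, 8 of the 10 lay above 0, none was called, and Psmb9 was at -0.56 ± 0.504, Psmb8 at -0.04 ± 0.519 and Tap1 at 0.18 ± 0.600.

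The members' shared profile over the 12 eWAT libraries was last compared with that of other genes, by the root mean square distance between standardized log2 CPM profiles, where 0 is identical. Of the 12784 genes ranked, those nearest to the mean of the members were Sp100 (0.249), Tmem127 (0.249), Dap (0.257), Pea15a (0.257), Lgals9 (0.268), Sp110 (0.270), Cst3 (0.281), E2f1 (0.285), Sparc (0.288) and Sp140 (0.295). The members' own distances ran from 0.197 for H2-D1 to 0.484 for Tap2, but each member is part of the mean it was compared with. Nearness to a profile that rises at ZT12 in controls selects genes that rise there, so their fold changes are not separate support. Sp100, a nuclear body protein, rose by 1.22 ± 0.119 between ZT3 and ZT12 in controls (edgeR adjusted p = 0.00607). Tmem127, at the same distance, rose by 0.25 ± 0.0747 and was not called (edgeR adjusted p = 0.0848). In iWAT, among 16377 genes, Sp140 ranked 923, Sp100 1012, Sp110 1068, Lgals9 1720 and Tmem127 1738, while E2f1, Dap, Cst3, Pea15a and Sparc ranked between 7072 and 12351. The profiles share library depth and tissue makeup within a depot, and the ranking was made with all 12 eWAT libraries.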

How the data were processed

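The 18 libraries were grouped by the labels into 6 groups of 3. Per the labels, RNA was extracted with Trizol and columns, and mRNA libraries were sequenced as single reads of 51 cycles. Tools listed without versions in the submitters' processing notes are the aligner STAR, the counter HTSeq, and edgeR, limma and DESeq2, with the builds mm10 and GRCm38. For eWAT the authors deposited whole-number read counts and log2 FPKM. For iWAT the authors deposited RPKM, p-values and log2 fold changes of the genes, and a table called read counts whose values are a normalized signal, each a whole multiple of a step per library (100% of 310956 values whole within 1e-06 after division).

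For the eWAT counts edgeR 4.0.16 was run under R 4.3.3 (robust quasi-likelihood, TMM, filterByExpr with minimum count 10 and total 15), with all 12 libraries in 4 groups. The planned edgeR test could not be used on the iWAT signal, and its log2(value + 1) was fitted with limma 3.58.1 (trend and robust), for genes of at least 10 in 3 libraries, and edgeR on the recovered reads was an alternative, which called 0 genes. The depot difference used limma on log2(CPM + 1) of shared symbols above 0.5 CPM, with iWAT values scaled as for the marker sums. P-values were adjusted over all genes tested. DESeq2 1.42.0 was an alternative. In CPM, 3 reads are worth 0.0415 to 0.147 (eWAT) and 0.0539 to 0.105 (iWAT), a floor that covers counting error only. The 2 depots' tables were normalized separately, and levels were not tested across them. No library was a copy of another (smallest chi-square per gene 19.2 over 18 pairs within groups). The fits were tested on simulated data.

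Named genes were the 10 members, up to 3 called genes with the smallest p per pathway list and comparison, Psmb5, Psmb6 and Psmb7, and the 10 genes nearest in profile. The members and lists were chosen with earlier results of these data known. The result of 1 called gene of the regulator list is not reported here. Replicate numbers passed the check for pairing (every correlation of deviations over 0.1) in eWAT between the schedules at ZT12, at 0.31, 0.132 and 0.203. An unlike-numbered pair there also passed 0.1, at 0.124, so the check does not show a pairing, and the labels do not say what the numbers mark.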

Additional observations from a re-analysis of the deposited data

How the results depend on the processing

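Counts of members called were within 1.5 times the reported one for RLE scaling, gene filters, the 2 groups alone, library totals and iWAT pseudocounts. In control eWAT between ZT3 and ZT12 (8 members of 559 genes), DESeq2 called 10 members (2168 genes, 1170 higher and 998 lower, against 443 and 116), no filter 320 genes, and the fit without 3 ZT3 libraries 5 members (619 genes, 268 higher and 351 lower). Leaving out 1 library gave 0 to 10 members and 1 to 2744 genes there, and 0 to 1 members in the depot difference. Under shiftwork between the times, DESeq2 called 4 members (288 genes) and the fit without 3 ZT3 libraries 1 (75 genes). Counts of all genes in other comparisons went from 0 to 629 (ZT3), 7 (ZT12) and 187 (interaction) with DESeq2, to 9 (ZT3) and 7 (interaction) without 3 ZT3 libraries, and leaving out 1 library gave 0 to 403 at ZT3, 0 to 186 for the interaction, 0 to 389 in iWAT and 0 to 667 for the depot difference. With a replicate block, 7 members and 298 genes were called in control eWAT, B2m being lost (adjusted p = 0.0504), and 1 gene in the depot difference. It changed the call of no other member. In the comparisons other than schedules at ZT12, replicate numbers did not pass the check for pairing (correlations of deviations down to -0.437 in eWAT, and -0.168 to 0.0285 in iWAT).

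Signs turned for values near 0. Tap2 at ZT3 was -0.00706 with DESeq2, -0.00714 with RLE scaling, -0.00232 without a filter and -0.0017 with the replicate block. Without 3 ZT3 libraries H2-K1 was -0.011 and Nlrc5 -0.0374 there. In iWAT, H2-D1 was -0.0369 by RPKM. Without 2 iWAT controls H2-K1 was 0.304, Tap1 0.364, Tap2 0.0689, Psmb8 0.293, Psmb9 0.012, Psmb10 0.387 and Nlrc5 0.0787. Without 3 ZT3 eWAT and 2 iWAT control libraries the depot difference was 0.296 for H2-K1, 0.00622 for H2-D1, 0.185 for Tap1, 0.0283 for Tap2, 0.0951 for Tapbp, 0.277 for Psmb10 and 0.0974 for Nlrc5, and 7 genes in all were called. Leaving out 1 library also turned the sign of Tap2 (-0.129 to 0.174) and Nlrc5 (-0.0435 to 0.208) at ZT3, Psmb10 at ZT12 (-0.213 to 0.0433), H2-K1 (-0.158 to 0.202), H2-D1 (-0.0096 to 0.231) and Psmb10 (-0.232 to 0.217) in iWAT, and B2m (-0.099 to 0.115), Tapbp (-0.153 to 0.0425) and Psmb10 (-0.402 to 0.0404) in the depot difference. The cause was not tested.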

Other observations

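Other cell types that carry class I were followed by the summed CPM of their markers. Endothelial markers lay between 647 and 1570 in eWAT and between 917 and 1920 in iWAT, and fibroblast and progenitor markers between 1270 and 2560 in eWAT and between 1750 and 9620 in iWAT, with the highest value in shiftwork replicate 3. Mesothelial markers lay between 36.6 and 375 in eWAT and between 1.74 and 6.21 in iWAT. Smooth muscle markers were at 9340 and 6780 in eWAT ZT3 control replicates 1 and 3 and at 284 to 866 in the other eWAT libraries. B and plasma cell markers in eWAT lay between 14.1 and 280, highest in ZT3 control replicate 3.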
